A study of Homo sapiens with 16 samples.

Results

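A line of T47D-MTVL cells that overexpresses the K26A form of the linker histone H1.4 was compared with a line that overexpresses the wild-type form. The members are the 4 arrays whose titles name the group K26 or WT, 2 arrays of each, out of 16 arrays in 8 groups. T47D-MTVL is a luminal human breast cancer cell line that holds an integrated luciferase reporter under the viral MMTV promoter. In the WT group the cells carried HA-tagged wild-type H1.4, and in the K26 group HA-tagged H1.4 with alanine in place of the lysine that the name K26A denotes. Neither line was treated, and neither received doxycycline (Dox), the drug that switches on the hairpins of the other lines in the series. Whether the serum-free step that the labels give for growth arrest applied to them is not stated in the sources read here. Untreated cells of the Ctrl line, which carries an inducible random hairpin, and of the sh225 line, which carries an inducible hairpin against several H1 variants, served as reference levels, with 2 arrays each. The hairpin lines also express a red fluorescent protein and a Dox-responsive KRAB repressor. Whether the overexpression lines carry these as well, which promoter drives the H1.4 transgene and whether each line is 1 clone are likewise not stated. With 1 line per form, the K26A substitution cannot be told apart from anything else in which the lines differ.

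Linker histones bind the nucleosome where DNA enters and leaves it and help to compact chromatin. Somatic human cells hold several H1 variants, of which H1.2 and H1.4 are widely expressed. Lysine 26 of H1.4 can be methylated, and methylated K26 is bound by the heterochromatin protein HP1, while acetylation of the same residue is removed by the deacetylase SIRT1. An alanine at that position can carry neither mark. The comparison addresses what gene expression looks like when the overexpressed H1.4 lacks that residue.

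Between 9846 and 10286 probes were detected on each of the 4 arrays, and arrays of 1 group correlated at r = 0.994 (WT) and r = 0.993 (K26) across items, against r = 0.974 to 0.980 between the groups. Of 9 luminal markers, 8 were detected on all 4 arrays, among them ESR1, PGR, GATA3, FOXA1, KRT8 and KRT19, and KRT18 was detected on 3 of them. Defining markers of other cell types were mostly absent: 2 of 8 basal or myoepithelial, 3 of 13 fibroblast, 5 of 13 leukocyte and 2 of 10 endothelial markers on the array were detected on any of the 4. The mean level of the leukocyte list was 5.34 and 5.24 on the WT arrays and 5.41 and 5.39 on the K26 arrays (log2), close to that of undetected probes.

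All values below are normalized log2 intensities or differences of them, K26A minus WT, with the standard error (SE) of the fit and n = 2 arrays per group. Adjusted p-values are from limma over all 9654 tested items (9172 named genes and 482 unnamed probes), and a gene is said to have risen or fallen, or to be called, where its adjusted p was under 0.05. The labels do not say that the 2 arrays of a group came from separate cultures, so the p-values reflect array-to-array spread that may be only technical. The K26A and WT lines differed in 2208 items (22.9% of those tested), 973 higher in K26A (10.1%) and 1235 lower (12.8%). The count depends on single arrays, with 1128 calls without WT replicate 1, 1347 without WT replicate 2 and 999 without K26 replicate 2. Most differences were small: the median absolute difference over all items was 0.23, the median SE was 0.15, and 64 items (0.663%) were called at least 2-fold higher and 83 (0.86%) at least 2-fold lower. These 147 items became 42 with no background correction, 61 with an offset of 50 in place of 16 and 21 with the authors' series matrix values, so the sizes of the differences depend on the processing. With the series matrix the largest fall, that of IFI27, went from -2.05 to -1.14 and the largest rise, that of FGFBP2, from 2.50 to 1.01. The median difference over all items was -0.0069, against which the medians of the gene lists below can be read. The arrays of the 2 groups did not overlap in 64.1% of all items and in 2207 of the 2208 called. A lack of overlap thus adds little to a call.

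**Figure D1:**
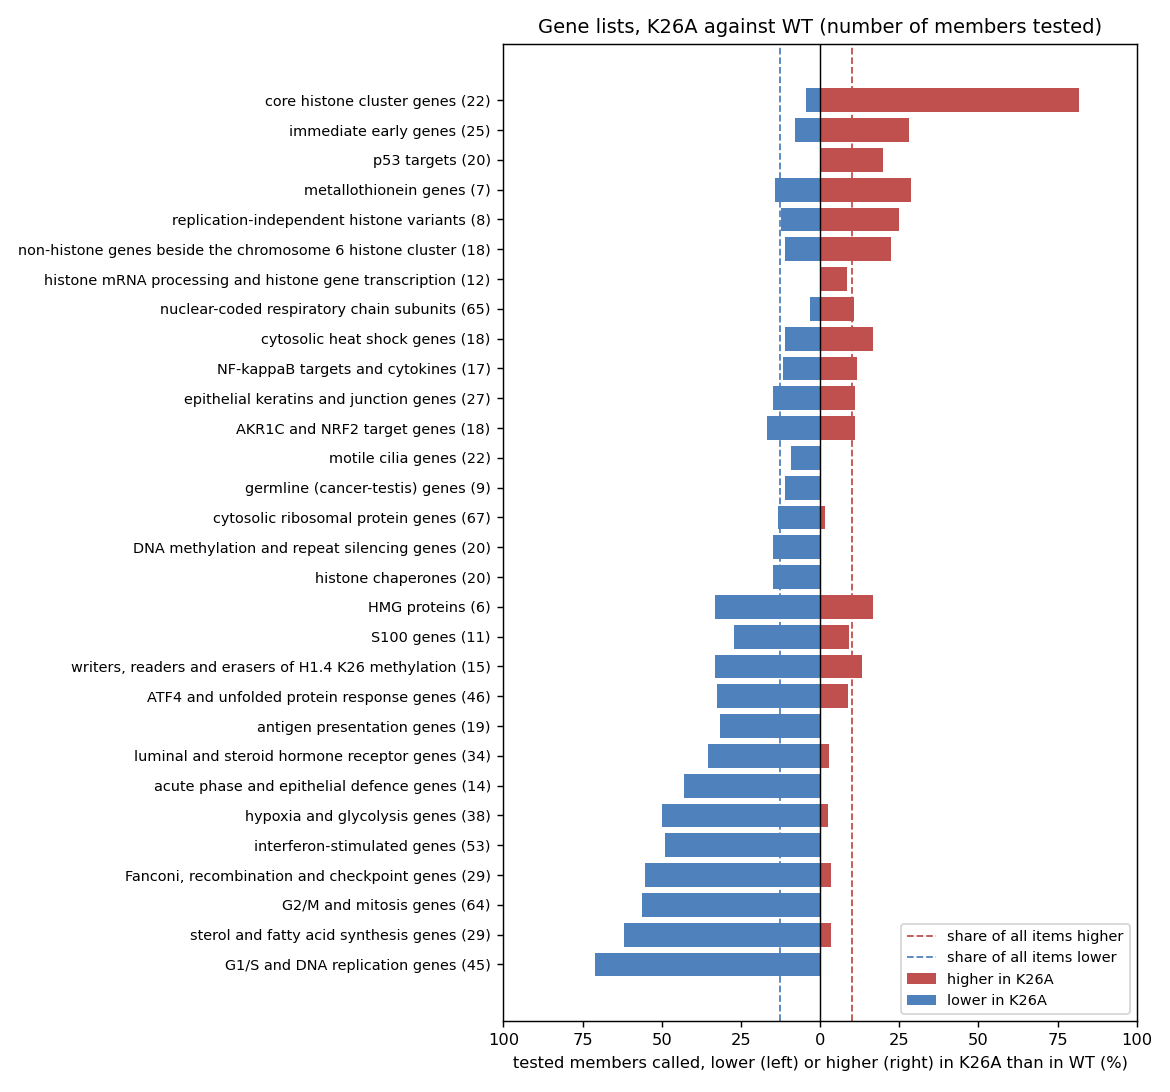
Share of the tested members of each gene list that were called higher (red, to the right) or lower (blue, to the left) in K26A than in WT, in percent, with the number tested in brackets. Dashed lines mark the shares over all items, 10.1% higher and 12.8% lower. Core histone genes reach furthest to the right and G1/S and DNA replication genes furthest to the left.

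The overexpressed gene was examined first. H1-4, which encodes H1.4, stood at 8.00 and 8.03 on the WT arrays and at 7.80 and 7.57 on the K26 arrays. It was detected on these 4 arrays and on none of the other 12, where Ctrl averaged 4.60 and untreated sh225 4.51. Both K26 arrays lay below both WT arrays, but the difference of -0.33 ± 0.17 did not pass the test (adjusted p = 0.171). It passed with the authors' series matrix values (-0.21, adjusted p = 0.0099) and with an offset of 50 (-0.29, adjusted p = 0.046). Whether the probe reads the transgene, the endogenous gene or both is not known from the sources used here.

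H1-2, which encodes the variant H1.2, stood at 10.05 and 9.94 in WT and at 11.18 and 11.23 in K26A, and rose by 1.21 ± 0.15 (2.31-fold, adjusted p = 1.6e-05). The groups were well apart, and both lay above the untreated sh225 arrays at 8.85 and 8.81. H1-10, which encodes H1x outside the histone clusters, stood at 9.74 and 9.71 in WT and at 9.93 and 10.02 in K26A (0.25 ± 0.14, adjusted p = 0.219). The other H1 genes on the array, H1-1, H1-3, H1-5 and the testis or oocyte variants H1-6, H1-7 and H1-8, were not detected on any of the 16 arrays.

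Core histone genes were the list with the largest share of rises. Of 63 listed genes, which encode the H2A, H2B, H3 and H4 proteins made mainly in S phase, 55 were on the array and 22 passed the filter on low signal. Of these 22, 18 rose and 1 fell, with a median of 0.89, and 14 to 20 rose in the alternatives run. The alternatives differed in the number tested, with 17 members where detection on all 4 arrays was required and 55 with no filter. The members that did not pass the filter are not measured here, so the count describes the detected genes only. All 6 tested H2A genes rose (0.75 to 1.49), 7 of 9 H2B genes rose, 2 of 3 H3 genes rose, and 3 of 4 H4 genes rose while 1 fell. The genes lie in clusters on chromosomes 6 and 1, and 13 of 16 on chromosome 6 (median 0.93) and 5 of 6 on chromosome 1 (median 0.77) rose.

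H4C8, a gene for histone H4, had the largest rise among them. It stood at 9.46 and 9.26 in WT and at 11.05 and 11.08 in K26A, a rise of 1.71 ± 0.13 (3.26-fold, adjusted p = 1.2e-07). H2AC8, a gene for H2A, went from 7.47 and 7.60 to 9.05 and 9.01 (1.49 ± 0.23, adjusted p = 0.00017). In both genes the K26 arrays lay above the WT arrays by far more than the gap between replicates, and the untreated sh225 arrays lay below both groups (8.61 and 8.69 for H4C8, 6.06 and 6.13 for H2AC8). H4C5 stood at 6.35 and 6.42 in WT and at 7.92 and 7.69 in K26A, a rise of 1.42 ± 0.19. H2BC8 rose by 1.24 ± 0.14 and H2AC25 by 1.16 ± 0.14. The smallest rise was that of H2BC12 (0.43). H3C4, H2BC11 and H2BC26 were not called, at 0.26, 0.27 and 0.36.

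H4C3 was the exception. This H4 gene stood at 12.97 and 12.80 in WT and at 12.37 and 12.12 in K26A, a fall of 0.64 on the log2 scale, while Ctrl read 12.98 and 13.01. Its call was lost without WT replicate 1 (adjusted p = 0.060) or K26 replicate 2 (adjusted p = 0.077). The 2 K26 arrays thus lay below the WT and Ctrl arrays, whereas for the other H4 genes they lay above. The untreated sh225 arrays, at 12.31 and 12.88, overlapped both groups' range. Histone genes are close copies of each other, so a probe can read several of them. Most histone mRNAs made in S phase end in a stem-loop rather than a poly(A) tail, and the labels do not say whether labelling started from such tails, so which part of the histone mRNA was read is not known.

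Set against untreated lines, the rise had steps. The median over the 22 core histone genes was 0.51 in WT minus untreated sh225 (12 higher, 1 lower) and 1.24 in K26A minus untreated sh225 (19 higher, 0 lower). Against Ctrl the medians were 0.58 for WT (16 higher, 0 lower) and 1.44 for K26A (19 higher, 1 lower). Over all items, 18.2% were higher and 17.7% lower in WT than in untreated sh225, and 26.2% and 28.8% in K26A. Against Ctrl, 16.3% were higher and 15.5% lower in WT, and 24.2% and 27.2% in K26A. The last 4 comparisons share arrays with each other and with K26A against WT, so their values are given side by side only. The array descriptions number 8 arrays in each of 2 series, with WT, K26 and sh225 in the second and Ctrl in the first. A difference from Ctrl thus cannot be told apart from one between these series, which does not touch K26A against WT or the sh225 reference.

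**Figure D2:**
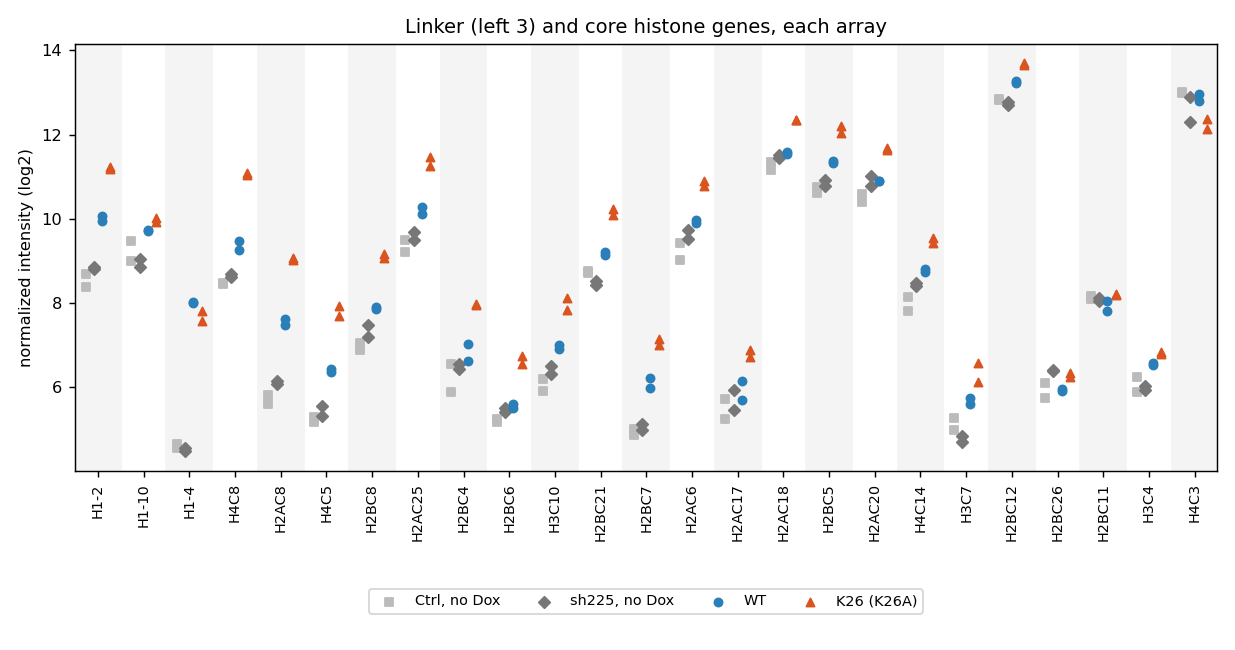
Normalized intensity (log2) of the 3 tested linker histone genes and the 22 tested core histone genes on each array of untreated Ctrl (squares), untreated sh225 (diamonds), WT (circles) and K26 (triangles). The K26 points lie above the WT points for H1-2 and for every core histone gene shown but H4C3, and for H1-4 the WT and K26 points lie far above the untreated lines.

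Genes that act with or on histones, or lie beside them, rose in smaller shares. Non-histone genes that lie between and beside the histone genes of chromosome 6 had a median of -0.05. Of 18 tested, 4 rose (22.2%, against 10.1% of all items) and 2 fell (11.1%, against 12.8%). Without WT replicate 1 or K26 replicate 1, 1 of the 4 rises was left, and 2 without either of the other arrays. Of 12 tested genes for histone mRNA processing and histone gene transcription, 1 rose: HINFP, a factor for H4 gene transcription, at 8.09 and 7.57 in WT and 8.70 and 8.06 in K26A. HINFP was also the 1 called item of 2208 whose groups overlapped, and its call was lost without WT replicate 2 (adjusted p = 0.405) or K26 replicate 1 (adjusted p = 0.484) and with only the 4 arrays of these groups, among other settings. Of 20 histone chaperones 3 fell (15%, against 12.8% of all items) and none rose. ASF1B, an H3-H4 chaperone of proliferating cells, fell (-0.81 ± 0.18, adjusted p = 0.0038) and was not called without WT replicate 1. HJURP, which loads the centromeric histone, fell as well (-0.71 ± 0.14, adjusted p = 0.0014). CENPA, that centromeric H3 variant, fell from 7.84 and 7.72 to 7.06 and 7.09.

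Windows of RefSeq sequence from 250 bases before to 50 after the gene start (GRCh38.p14) are shown for the 2 core histone genes with the largest rises in size, H4C8 and H2AC8, and for H1-2, the linker histone gene that rose, because these genes moved together. The H4C8 window is chr6:26285485-26285784 on the minus strand, the H2AC8 window chr6:26216671-26216970 on the plus strand and the H1-2 window chr6:26056421-26056720 on the minus strand. Capitals mark matches on either strand to the CCAAT box, bound by NF-Y, or to the TATA motif searched, TATAA.
H4C8: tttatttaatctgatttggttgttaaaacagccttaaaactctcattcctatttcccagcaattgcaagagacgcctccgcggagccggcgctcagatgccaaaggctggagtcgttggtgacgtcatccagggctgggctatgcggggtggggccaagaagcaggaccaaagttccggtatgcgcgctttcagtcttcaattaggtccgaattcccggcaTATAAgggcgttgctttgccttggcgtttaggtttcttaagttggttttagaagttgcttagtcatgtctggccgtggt
H2AC8: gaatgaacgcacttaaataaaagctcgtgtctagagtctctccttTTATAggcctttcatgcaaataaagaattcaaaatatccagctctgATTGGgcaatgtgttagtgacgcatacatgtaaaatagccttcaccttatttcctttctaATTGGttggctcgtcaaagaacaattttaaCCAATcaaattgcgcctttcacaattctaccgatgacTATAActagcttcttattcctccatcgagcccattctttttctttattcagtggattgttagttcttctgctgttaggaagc
H1-2: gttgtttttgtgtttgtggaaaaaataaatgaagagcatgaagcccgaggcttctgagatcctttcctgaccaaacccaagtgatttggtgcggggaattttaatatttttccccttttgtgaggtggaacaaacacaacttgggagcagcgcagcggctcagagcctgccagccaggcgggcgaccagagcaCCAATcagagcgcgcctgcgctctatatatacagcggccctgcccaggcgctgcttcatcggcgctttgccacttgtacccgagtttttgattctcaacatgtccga
Of the 7535 windows matched to tested genes, 38.0% held the CCAAT box and 11.3% the TATA motif. Among 21 core histone windows, 18 held the former (85.7%) and 18 the latter (85.7%). The letters of one motif do not contain those of another. A match describes the letters of the window and is not a binding site.

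Enzymes and readers of K26 itself were mixed. Of 15 tested genes for writers, readers and erasers of H1.4 K26 methylation and acetylation, 2 rose and 5 fell. SIRT1, the deacetylase that acts on H1.4 K26, stood at 8.16 and 8.54 in WT and at 9.31 and 9.87 in K26A, a rise of 1.24 ± 0.18 (2.36-fold, adjusted p = 0.00014). Both K26 arrays lay above both WT arrays, and untreated sh225 read 7.94 and 7.68. AURKB, the mitotic kinase that phosphorylates the neighbouring serine, fell from 9.25 and 9.20 to 8.16 and 8.11 (-1.09 ± 0.16, adjusted p = 9.6e-05). EZH2, a methyltransferase reported to act on H1.4 K26, fell by 0.51 ± 0.16 (adjusted p = 0.026), a call lost without WT replicate 1, WT replicate 2 or K26 replicate 1, with an adjusted p of up to 0.194. Without WT replicate 1, WT replicate 2 or K26 replicate 1, 2 of the 5 falls were left, and 3 without K26 replicate 2. Of 20 genes for DNA methylation and repeat silencing, 3 fell (15%, against 12.8% of all items) and none rose. The list's median was 0.16, and 13 of the 20 had a value above 0. The 3 were APOBEC3B, a cytidine deaminase (-1.01 ± 0.17), SUV39H1, an H3K9 methyltransferase (-0.47 ± 0.10), and DNMT1, the maintenance DNA methyltransferase (-0.43 ± 0.11). DNMT1 was not called without WT replicate 1 or K26 replicate 2.

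The largest single rises came from many pathways. ABCA1, which exports cholesterol from the cell, stood at 7.30 and 6.81 in WT and at 8.56 and 8.76 in K26A, a rise of 1.61 ± 0.18 (3.05-fold, adjusted p = 1.1e-05). CYP1A1, an aryl hydrocarbon receptor target that oxidizes aromatic compounds, went from 8.01 and 7.69 to 9.48 and 9.24 (1.51 ± 0.21), and PPARGC1A, a coactivator of mitochondrial genes, from 6.74 and 6.63 to 8.15 and 8.20 (1.48 ± 0.18). In untreated sh225 these 3 genes were lower than in either overexpression line, with CYP1A1 at 5.08 and 4.88. WLS, which carries Wnt proteins to the cell surface, rose from 7.16 and 7.22 to 8.58 and 8.71, while its other probe differed by 0.55. For WLS the WT line and untreated sh225 lay close together (-0.19, adjusted p = 0.258).

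Other genes crossed the detection limit. FGFBP2, a secreted protein of cytotoxic lymphocytes, was undetected on both WT arrays (5.14 and 5.14) and read 7.59 and 7.68 in K26A, at least 3.23-fold higher (adjusted p = 3.6e-07). ACKR3, a scavenging receptor for the chemokine CXCL12, was at least 3.30-fold higher, CD164, a sialomucin, at least 2.24-fold, SRSF11, a splicing factor, at least 2.14-fold, FAM209A at least 1.41-fold and HAND1, a transcription factor of heart and trophoblast, at least 1.39-fold. These bounds set the K26 level against the lowest detected signal of each WT array. FGFBP2 was also detected on both untreated sh225 arrays (5.92 and 6.45). Against these, WT lay lower (-1.05, adjusted p = 0.00073) and K26A higher (1.45). In all, 68 genes that rose were undetected on both WT arrays and detected on both K26 arrays, and 79 that fell were the reverse. A further 21 called items were detected on none of the 4 arrays and are not named here unless said.

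Interferon-stimulated genes were lower in K26A. These genes are switched on by type I and III interferons, and many encode antiviral proteins. Of 74 listed, 67 were on the array and 53 were tested, of which 26 fell and none rose. The median was -0.44, and 10 of the 53 were undetected on all 4 arrays. The alternatives tested 32 members with detection required on all 4 arrays and 67 with no filter. Between 18 and 28 members were called lower in the alternatives run.

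IFI27, an interferon-induced mitochondrial and membrane protein, had the largest fall of all genes. It read 8.47 and 8.30 in WT and 6.42 and 6.26 in K26A, a fall of 2.05 ± 0.17 on the log2 scale (WT 4.14-fold over K26A, adjusted p = 3.6e-07). MX1, a GTPase that blocks viral replication, went from 11.09 and 11.01 to 9.31 and 9.25 (-1.77 ± 0.10, adjusted p = 2.0e-09). IFIT1, which binds viral RNA that lacks the host cap, went from 7.67 and 7.78 to 6.18 and 6.07 (-1.60 ± 0.16, adjusted p = 2.7e-06). In these 3 genes the untreated sh225 arrays lay between the groups: at 6.62 and 7.03 for IFI27, 10.21 and 10.24 for MX1, and 7.15 and 6.94 for IFIT1. IFITM1, a membrane protein that limits viral entry, read 9.16 and 8.73 in WT and 7.58 and 7.39 in K26A (-1.46 ± 0.14). OAS2, which makes the activator of RNase L, read 9.77 and 9.59 in WT and 8.00 and 7.89 in K26A (-1.74 ± 0.11, adjusted p = 1.1e-08). The 2 deposited tables disagree on which OAS2 probe carries these values, its other probes differed by -0.93 to -0.34, and with the series matrix the call was lost (adjusted p = 0.131).

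Regulators and conjugation enzymes of the pathway were lower too, chosen here after their values were seen. IRF9, a transcription factor of the interferon response, fell from 8.62 and 8.85 to 7.97 and 8.13 (-0.69 ± 0.15, adjusted p = 0.0027), and IRF7, which amplifies interferon production, by 0.65 ± 0.17 (adjusted p = 0.012, up to 0.113 without WT replicate 1 or K26 replicate 2). ISG15, a ubiquitin-like modifier, fell by 0.98 ± 0.21 (adjusted p = 0.0028) and its conjugating enzyme UBE2L6 by 0.55 ± 0.12 (adjusted p = 0.0039). Without WT replicate 1 both missed the threshold, at adjusted p-values of 0.052 and 0.053, as did ISG15 without K26 replicate 2 (adjusted p = 0.051). In all, 50 of 53 members had a value below 0, and the list ran from -2.05 to 0.23.

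Beside untreated sh225, members of the list went both ways in the WT line, while those called in the K26A line were mostly lower. The median was 0.12 in WT minus untreated sh225 (17 higher, 8 lower) and -0.36 in K26A minus untreated sh225 (2 higher, 25 lower). Against Ctrl the medians were 0.19 for WT (19 higher, 7 lower) and -0.28 for K26A (2 higher, 22 lower). MX1 was 0.82 above untreated sh225 in WT and 0.94 below it in K26A (log2, -0.94), and for OAS2 WT did not differ beyond the spread (0.12, adjusted p = 0.426) while K26A was at -1.62.

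**Figure D3:**
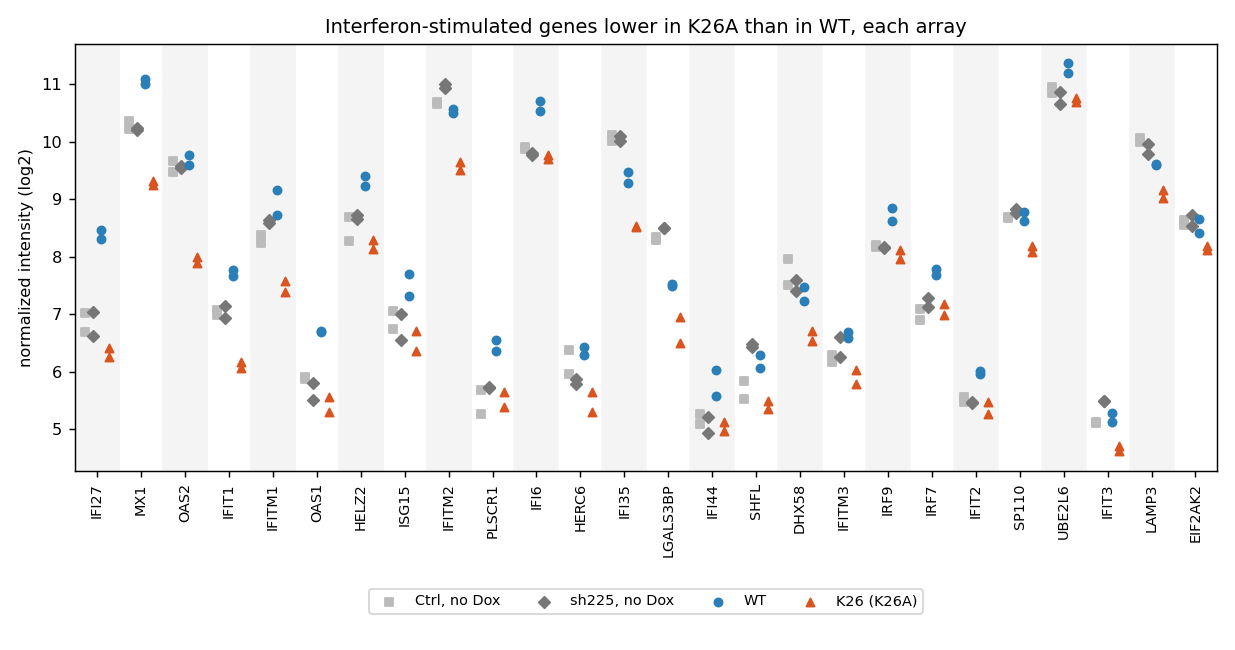
Normalized intensity (log2) of the 26 interferon-stimulated genes called lower in K26A than in WT, on each array of untreated Ctrl (squares), untreated sh225 (diamonds), WT (circles) and K26 (triangles). K26 points lie below the WT points for all 26, from IFI27 at -2.05 on the left, and for MX1 and IFIT1 the untreated arrays lie between the 2 groups.

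The windows of MX1 (chr21:41420308-41420607 on the plus strand) and IFIT1 (chr10:89392373-89392672 on the plus strand) are shown for 2 of the 26 genes that fell. They were not chosen by size alone, since IFI27 (-2.05) and OAS2 (-1.74) fell more than IFIT1 (-1.60). Capitals mark, on either strand, the core of the interferon-stimulated response element, searched as GAAA, any 2 bases and GAAA.
MX1: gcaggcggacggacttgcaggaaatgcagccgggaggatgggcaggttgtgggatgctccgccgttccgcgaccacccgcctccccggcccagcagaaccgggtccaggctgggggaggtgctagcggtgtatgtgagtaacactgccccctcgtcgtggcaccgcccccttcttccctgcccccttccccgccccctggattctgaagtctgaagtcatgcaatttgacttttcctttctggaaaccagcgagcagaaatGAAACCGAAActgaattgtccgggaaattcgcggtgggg
IFIT1: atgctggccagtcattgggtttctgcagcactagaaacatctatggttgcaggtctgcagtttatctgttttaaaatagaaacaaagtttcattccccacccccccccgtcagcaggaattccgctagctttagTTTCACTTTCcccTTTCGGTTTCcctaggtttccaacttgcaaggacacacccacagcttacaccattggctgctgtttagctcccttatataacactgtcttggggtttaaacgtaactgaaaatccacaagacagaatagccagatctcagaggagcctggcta
The motif stood in 2.7% of all windows and in 26 of 42 windows of interferon-stimulated genes (61.9%). It was present in 13 of 20 windows of genes that fell (65.0%) and in 13 of 22 windows of genes that were not called lower (59.1%).

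Neighbouring immune lists moved less. Of 19 tested antigen presentation genes, 6 fell and none rose (median -0.19), and 2 were left without WT replicate 1 or K26 replicate 2 and 3 without WT replicate 2. TAP2, a subunit of the peptide transporter, was detected on both WT arrays (6.54 and 6.69) and on neither K26 array, at least 1.64-fold lower (adjusted p = 0.0040), a call lost in the mean over its probes (adjusted p = 0.138). Chemokines went both ways. CXCL8, which attracts neutrophils, rose from 6.98 and 6.86 to 8.13 and 8.11 (1.20 ± 0.16, adjusted p = 6.3e-05), and CCL2, which attracts monocytes, was at least 1.56-fold higher. CCL5, an interferon- and NF-kappaB-responsive chemokine, was at least 1.74-fold lower (adjusted p = 0.0059), a call lost without WT replicate 1 or K26 replicate 2 (adjusted p of up to 0.089). IL23A, a subunit of the cytokine IL-23, read 7.29 and 7.51 in WT and was undetected in K26A, at least 2.82-fold lower (adjusted p = 3.1e-06). Of 14 acute phase and epithelial defence genes, 6 fell and none rose, 3 without WT replicate 1: CFB, complement factor B, fell from 11.91 and 11.91 to 10.84 and 10.98, and ORM1, an acute phase plasma protein, from 8.24 and 8.30 to 7.34 and 7.09.

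Genes of DNA replication and mitosis were lower in K26A. The G1/S list holds the helicase, polymerase and nucleotide synthesis genes induced by E2F factors as cells enter S phase, and 32 of its 45 tested members fell and none rose (median -0.61). The G2/M list holds spindle, kinetochore and mitotic kinase genes, and 36 of 64 fell and none rose (median -0.44). The alternatives tested 44 G1/S and 60 G2/M members with detection required on all 4 arrays, and 55 and 70 with no filter. Between 28 and 34 G1/S members and between 24 and 36 G2/M members were called lower in the alternatives run.

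RRM2, the regulated subunit of ribonucleotide reductase, read 7.90 and 8.01 in WT and 6.82 and 6.69 in K26A (-1.20 ± 0.15, adjusted p = 1.6e-05). PRIM1, the primase subunit, went from 9.50 and 9.64 to 8.50 and 8.46 (-1.09 ± 0.11), and CDC45, part of the replicative helicase, from 9.32 and 9.24 to 8.32 and 8.10 (-1.07 ± 0.13). TK1, thymidine kinase, went from 10.47 and 10.51 to 9.47 and 9.47 (-1.02 ± 0.10, adjusted p = 2.9e-06), and E2F2, an activating E2F factor, from 9.62 and 9.27 to 8.50 and 8.37 (-1.0 ± 0.18). In all 5 genes both K26 arrays lay below both WT arrays, and over all items the groups did not overlap in 64.1%. For RRM2, PRIM1, CDC45 and TK1 the WT line was not called against untreated sh225 (0.21, -0.01, 0.08 and 0.08) and K26A lay below it (-0.99, -1.10, -0.99 and -0.94). E2F2 was higher in WT than in untreated sh225 (0.54, adjusted p = 0.025) and lower in K26A (-0.46, adjusted p = 0.037). Over the G1/S list the median against untreated sh225 was 0.21 in WT (13 higher, 3 lower) and -0.35 in K26A (1 higher, 23 lower).

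Among mitotic genes, KIFC1, a minus-end kinesin, read 9.40 and 9.56 in WT and 8.30 and 8.25 in K26A (-1.21 ± 0.11, adjusted p = 8.8e-07). CDCA5, which protects cohesin, went from 11.20 and 11.22 to 10.28 and 10.45 (-0.85 ± 0.10), and MELK, a mitotic kinase, from 9.83 and 10.04 to 9.0 and 9.18 (-0.84 ± 0.12). CDC25C, the phosphatase that activates CDK1, read 6.90 and 6.55 in WT and 5.86 and 5.97 in K26A (-0.81 ± 0.16), and was detected on 1 K26 array. Its call was lost with the series matrix (adjusted p = 0.084). The core histone genes, which are also made in S phase, thus moved opposite to the G1/S genes in these arrays.

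The list of Fanconi, recombination and checkpoint genes had 16 of 29 lower and 1 higher (median -0.48), with 10 lower without WT replicate 1, K26 replicate 1 or K26 replicate 2. EXO1, a DNA end-resection nuclease, read 9.29 and 9.32 in WT and 8.29 and 8.22 in K26A (-1.05 ± 0.13, adjusted p = 3.1e-05). RMI2, of the complex that dissolves crossed DNA strands, fell by 0.86 ± 0.13 and FANCG, of the Fanconi core complex, by 0.85 ± 0.14. RDM1, related to the recombination factor RAD52, went from 8.67 and 8.72 to 7.25 and 7.06 (-1.54 ± 0.13, adjusted p = 5.7e-07). Of 20 p53 targets 4 rose and none fell, with 2 left without WT replicate 1 and 1 without WT replicate 2 or K26 replicate 2. RRM2B, the p53-induced reductase subunit, was at least 1.22-fold higher (adjusted p = 0.00033).

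The windows of E2F2 (chr1:23531184-23531483 on the minus strand) and KIFC1 (chr6:33391573-33391872 on the plus strand) show the motifs of the 2 lists. In E2F2 capitals mark TTTNNCGC, an E2F-type motif, and in KIFC1 they mark TTTGAA, the cell cycle homology region, and CCAAT, each on either strand.
E2F2: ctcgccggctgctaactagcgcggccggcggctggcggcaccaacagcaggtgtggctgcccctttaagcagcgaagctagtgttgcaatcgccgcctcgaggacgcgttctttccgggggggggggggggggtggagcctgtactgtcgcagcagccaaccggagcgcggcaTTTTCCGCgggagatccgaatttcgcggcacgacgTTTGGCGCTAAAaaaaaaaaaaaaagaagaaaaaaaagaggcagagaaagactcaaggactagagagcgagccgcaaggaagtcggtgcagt
KIFC1: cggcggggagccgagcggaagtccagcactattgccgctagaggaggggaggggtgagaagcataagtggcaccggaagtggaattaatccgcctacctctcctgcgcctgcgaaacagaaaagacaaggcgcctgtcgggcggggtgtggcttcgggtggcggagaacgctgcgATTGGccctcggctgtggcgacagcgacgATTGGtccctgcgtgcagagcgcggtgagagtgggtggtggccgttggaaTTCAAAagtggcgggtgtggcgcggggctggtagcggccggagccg
TTTNNCGC was in 10.9% of all windows and in 20 of 39 G1/S windows (51.3%). TTTGAA was in 9.3% of all windows, in 39 of 53 G2/M windows (73.6%) and in 1 of 39 G1/S windows (2.6%). CCAAT was in 36 of 53 G2/M windows (67.9%).

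Lipid synthesis genes were lower. These enzymes make cholesterol and fatty acids under the SREBP factors, and 18 of 29 tested members fell and 1 rose (median -0.47), with 11 lower without WT replicate 2 or K26 replicate 2. SCD, the desaturase that makes oleate, read 12.79 and 13.01 in WT and 11.70 and 11.76 in K26A (-1.17 ± 0.10, 2.24-fold lower than in WT, adjusted p = 3.6e-07). NSDHL, a sterol dehydrogenase, went from 9.25 and 9.17 to 8.03 and 8.16 (-1.11 ± 0.12). NSDHL lies on chromosome X, shortly before the distal stretch described below. ACACB, a mitochondrial acetyl-CoA carboxylase, was undetected in K26A and at least 1.67-fold lower. SC5D, a late sterol desaturase, was the 1 member that rose (0.69). Against untreated sh225 the list's median was 0.03 in WT and -0.43 in K26A.

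Glycolysis and hypoxia genes were lower as well. Of 38 tested members, which include glycolytic enzymes and targets of the hypoxia-inducible factor HIF, 19 fell and 1 rose (median -0.39), and 13 to 21 fell across the alternatives run. The alternatives tested 37 members with detection required on all 4 arrays and 43 with no filter. ALDOC, an aldolase, read 12.16 and 11.88 in WT and 10.77 and 10.53 in K26A (-1.37 ± 0.13, 2.58-fold lower than in WT, adjusted p = 9.8e-07). GPI, glucose-6-phosphate isomerase, went from 9.83 and 10.03 to 8.81 and 8.93 (-1.06 ± 0.14). DDIT4, an inhibitor of mTORC1, went from 10.76 and 10.77 to 9.78 and 9.72 (-1.02 ± 0.10, adjusted p = 3.1e-06). PFKP, the platelet-type phosphofructokinase, fell by 1.01 ± 0.12 and PFKFB4, which sets the level of its activator, by 0.94 ± 0.13. In each of the 5 genes the replicates of a group lay closer to each other than to the other group. The 5 were named as called members of largest difference, and groups did not overlap in 2207 of the 2208 called items. This separation thus adds little to their calls. The order against untreated lines differed from gene to gene: ALDOC was 0.95 higher in WT than in untreated sh225, while GPI was at 0.01 in WT and -1.04 in K26A. UCP2, a mitochondrial carrier, fell from 9.15 and 9.18 to 7.44 and 7.63 (-1.63 ± 0.16, adjusted p = 2.6e-06).

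The ALDOC window (chr17:28576846-28577145 on the minus strand) is shown as the member with the largest fall. Capitals mark ACGTG on either strand, the core of the hypoxia response element.
ALDOC: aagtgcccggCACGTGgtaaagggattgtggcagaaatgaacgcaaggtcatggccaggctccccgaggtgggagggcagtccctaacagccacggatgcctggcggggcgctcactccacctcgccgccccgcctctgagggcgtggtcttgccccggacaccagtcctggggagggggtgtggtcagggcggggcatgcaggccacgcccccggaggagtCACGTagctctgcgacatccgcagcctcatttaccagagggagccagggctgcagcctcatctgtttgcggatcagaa
ACGTG was in 27.8% of all windows and in 19 of 36 windows of hypoxia and glycolysis genes (52.8%).

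**Figure D4:**
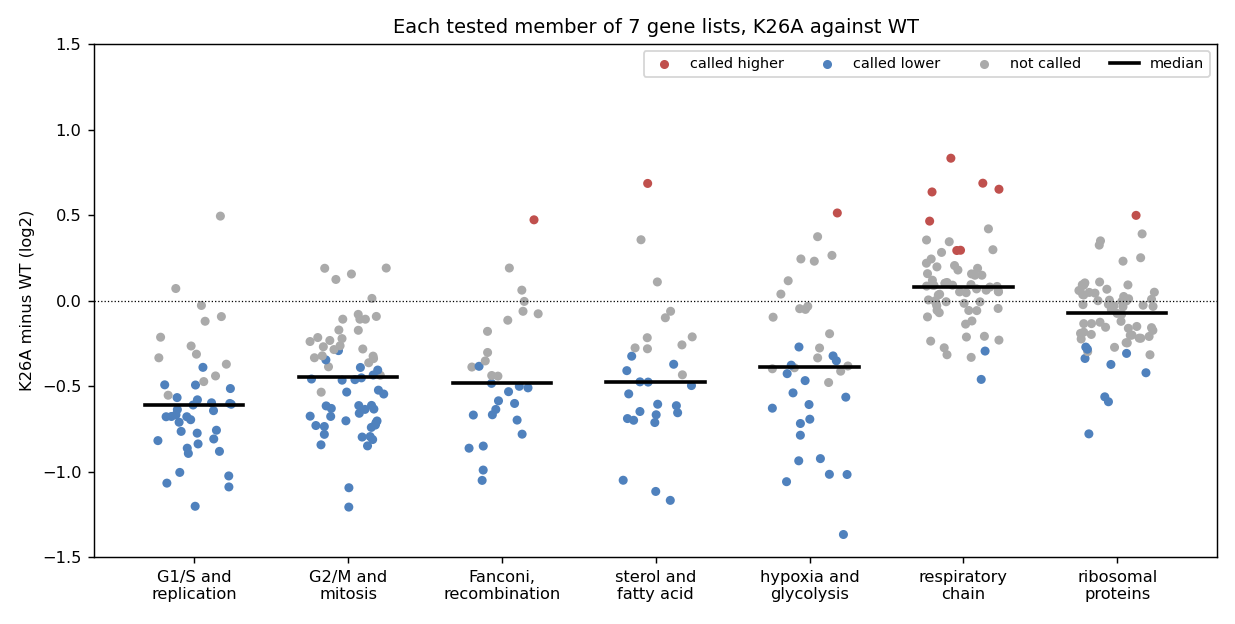
Difference K26A minus WT (log2) of each tested member of 7 gene lists, as points, with the median as a bar. Blue points were called lower, red points higher and grey points were not called. Medians of the G1/S (-0.61), G2/M (-0.44), Fanconi (-0.48), sterol (-0.47) and hypoxia (-0.39) lists lie below 0, and those of the respiratory chain (0.08) and ribosomal protein (-0.07) lists lie close to it.

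Other housekeeping lists stayed near the median of all items. Of 65 nuclear-coded respiratory chain subunits 7 rose and 2 fell (median 0.08), and 3 of the rises were left without WT replicate 1 or K26 replicate 2 and 4 without K26 replicate 1. UQCR10, of complex III, rose by 0.69 ± 0.13 (adjusted p = 0.0013) and CYCS, cytochrome c, by 0.65 ± 0.13 (adjusted p = 0.0016). Of 67 cytosolic ribosomal protein genes 1 rose and 9 fell (median -0.07), and 4 of the falls were left without WT replicate 2 and 5 without K26 replicate 1. RPS4X, on the long arm of chromosome X, had the largest of these falls (-0.78 ± 0.12, adjusted p = 0.00013).

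Stress genes split. In the list of ATF4 and unfolded protein response genes, 15 of 46 fell and 4 rose (median -0.09), with 9 falls without WT replicate 1 and 8 without K26 replicate 2. PHGDH, the first enzyme of serine synthesis, went from 12.59 and 12.36 to 11.78 and 11.65 (-0.76 ± 0.11), and AARS1, alanyl-tRNA synthetase, from 12.62 and 12.68 to 11.90 and 11.93 (-0.74 ± 0.08). DDIT3, the stress factor CHOP, rose from 10.69 and 10.72 to 11.47 and 11.32 (0.69 ± 0.10), and PPP1R15A, which restores translation after stress, from 11.22 and 11.12 to 11.95 and 11.73 (0.67 ± 0.13). These 4 genes kept their calls in each leave-one-out fit. Immediate early genes, which respond within minutes to growth factors, had 7 of 25 higher and 2 lower (median 0.19), with 4 higher without WT replicate 2 and 3 without K26 replicate 2. CCN1, a matricellular protein, rose by 0.97 ± 0.15 and DUSP1, a MAP kinase phosphatase, by 0.83 ± 0.13, while IER3 fell (-0.78 ± 0.12). Of 18 cytosolic heat shock genes 3 rose and 2 fell, with HSPB8, a small heat shock protein, at 0.79 ± 0.15. Without WT replicate 1 or K26 replicate 2 the calls of HSPE1, BAG3 and HSPA8 were lost, which left 2 rises, those of HSPB8 and HSPA4.

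Luminal genes were lower in part. Of 34 tested luminal and steroid hormone receptor genes 12 fell and 1 rose (median -0.27), with 7 lower without K26 replicate 2. TFF1, an estrogen-induced secreted peptide, read 7.26 and 6.82 in WT and 6.00 and 5.29 in K26A (-1.40 ± 0.21, adjusted p = 0.00018), and was detected on 1 K26 array. PRLR, the prolactin receptor, fell by 0.79 ± 0.12 and PGR, the progesterone receptor, by 0.53 ± 0.12 (adjusted p = 0.0049, and 0.058 without WT replicate 2). ESR1, the estrogen receptor, was not called (-0.20, adjusted p = 0.397), nor was the pioneer factor FOXA1 (-0.0031, adjusted p = 0.985). S100A8, a calcium-binding alarmin, fell from 8.74 and 8.64 to 7.65 and 7.68 (-1.03 ± 0.19) and S100A4, also listed as a fibroblast marker, by 0.77 ± 0.12, whereas COL1A1 and PDGFRA, the other fibroblast markers detected, were not called. CD14, a monocyte marker, was the 1 leukocyte marker of 3 tested that rose, by 1.09 ± 0.22. The part of other cell types in these values was not tested. PCP4, a calmodulin-binding peptide, fell from 9.01 and 9.0 to 7.55 and 7.45, and IGFBP6, a carrier of insulin-like growth factor II, was at least 1.56-fold lower.

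Metal-binding and detoxification genes went both ways between the lines. MT1X, a metallothionein that binds zinc and copper, read 6.53 and 6.60 in WT and 7.33 and 7.06 in K26A, a rise of 0.63 ± 0.12 (adjusted p = 0.0010). MT1F went the other way (-0.76 ± 0.12, adjusted p = 0.00018). In untreated sh225 MT1X read 10.34 and 10.52, and both overexpression lines lay below it, WT at -3.86 and K26A at -3.23. In each line 4 of 7 metallothionein genes were called lower than in untreated sh225 and none higher. The 18 AKR1C and NRF2 targets went both ways against it, with medians of -0.17 in WT (3 higher, 8 lower) and -0.18 in K26A (5 higher, 8 lower). ABCC3, an efflux transporter, fell from 9.88 and 9.79 to 9.03 and 9.01 (-0.81 ± 0.09), and AKR1C3, which reduces steroids, rose by 0.72 ± 0.15 (adjusted p = 0.0027). Against untreated sh225 ABCC3 was lower in both lines (WT -1.20, K26A -2.01), while AKR1C3 was called higher in K26A (0.63) and not called in WT (-0.09).

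A stretch of neighbouring genes at the distal end of the long arm of chromosome X was lower as a block. In windows of 15 adjacent tested genes across the genome, 8821 in all, the median number lower was 2. In 14 windows at least 12 were lower, and all 14 lay on chromosome X, while no window off that stretch had more than 8. The stretch was chosen by these values, so its counts are a description with no test. It holds 28 tested genes in order from BCAP31 to VAMP7, of which 24 fell and none rose, with a median of -0.71, a level of 0.612 of that in WT. The remaining 256 tested genes of chromosome X had a median of 0.02, with 40 lower and 22 higher. Gene order is that of RefSeq on GRCh38.p14, and no coordinates are given for the stretch.

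Unrelated genes shared this fall. EMD, a nuclear envelope protein, read 11.38 and 11.24 in WT and 10.32 and 10.32 in K26A (-0.99 ± 0.12, adjusted p = 1.5e-05). LAGE3, of a tRNA-modifying complex, went from 11.28 and 11.12 to 10.19 and 10.30 (-0.95 ± 0.11), and DKC1, the pseudouridine synthase of ribosome and telomerase RNA, from 10.94 and 11.08 to 10.29 and 10.21 (-0.76 ± 0.11). The lowest value in the stretch was that of F8A1 (-1.33), and L1CAM (0.28), RENBP (0.12), CLIC2 (-0.03) and HCFC1 (-0.24) were not called. HAUS7, a spindle subunit whose gene lies shortly before the stretch, fell from 8.52 and 8.44 to 7.16 and 6.95 (-1.43 ± 0.15). CD99L2, HMGB3, CETN2, NSDHL, ZNF275 and CCNQ, in the same region before BCAP31, fell too. Among them VMA21 rose, and CSAG3, MAGEA6, MAGEA1, BGN, PNCK and SLC6A8 were not called. The start of the stretch was set by the threshold of 12 lower genes in a window of 15, so lower genes run on before it.

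The position against the untreated lines differed between genes of the stretch. In WT minus untreated sh225 the median of the 28 genes was 0.68, with 20 higher and none lower, and in K26A minus untreated sh225 it was -0.08, with 6 higher and 8 lower. Against Ctrl the medians were 0.65 for WT (21 higher, 0 lower) and 0.01 for K26A (6 higher, 6 lower). The K26A medians near 0 are over genes that went both ways, from ARHGAP4 at -1.33 to RENBP at 1.66 against untreated sh225. DKC1 and IKBKG, among the 20 genes higher in WT, stood at 0.68 and 0.68 in WT and were not called in K26A (-0.08 and -0.09). F8A1 was not among those 20: the WT line was not called against untreated sh225 (0.04) and K26A lay below it (-1.29). The same held for ARHGAP4 (-0.08 and -1.33) and DNASE1L1 (-0.11 and -1.0). EMD read 10.54 and 10.58 in untreated sh225, below the WT arrays and above the K26 arrays. Against untreated sh225 it was higher in WT (0.75) and not called in K26A (-0.24, adjusted p = 0.093). On the rising side, 13 windows had at least 10 higher genes, up to 11 of 15, and all 13 lay on chromosome 6 among the histone genes described above.

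**Figure D5:**
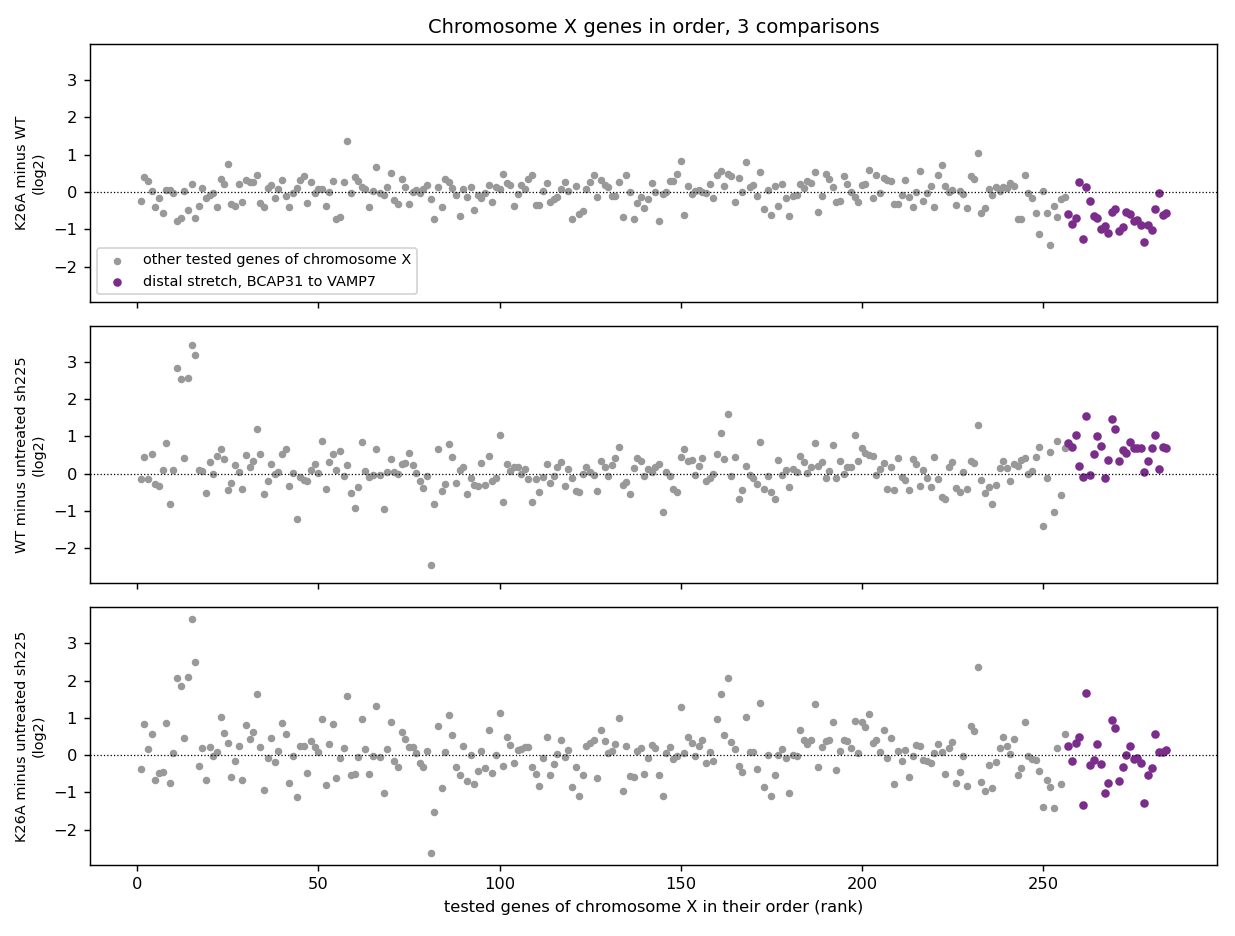
Differences (log2) of the tested genes of chromosome X in their order, for K26A minus WT (top), WT minus untreated sh225 (middle) and K26A minus untreated sh225 (bottom). The 28 genes from BCAP31 to VAMP7 (purple) lie mostly below 0 at the top (median -0.71) and above 0 in the middle (median 0.68), and spread about 0 at the bottom (median -0.08).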

How the data were processed

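Each of 16 RNA samples was read on 1 Illumina bead array. Per probe and array, the deposited scanner table gives an intensity and a detection p-value, the former not yet background-corrected or scaled. GenomeStudio 1.6.0 is named, without its role, per the submitters' processing notes. The authors' series matrix, deposited as linear intensity values by an unstated normalization, served as an alternative. For 4.46% of probes the tables place a gene's values under different probe identifiers, and which table is right is not known.

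The deposited intensities went through neqc (limma 3.58.1 in R 4.3.3): normexp correction against controls derived from detection p-values, an offset of 16, quantile scaling and log2. The filter kept 11258 of 24530 probes, those with a detection p below 0.01 on 2 or more arrays, and the probe of highest mean stood for a gene. Platform annotation named 23266 probes with 1 symbol, and 1264 stayed unnamed. All 16 arrays entered 1 limma fit of group means with 8 residual degrees of freedom, which was tested on simulated data, and p-values were adjusted by Benjamini-Hochberg over 9654 items. "At least N-fold" sets the brighter group against the higher, per array, of its lowest detected signal and what the probe itself read.

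The members and the gene lists were chosen with earlier results of these data known. Genes were named by rule: the 12 largest rises and 12 largest falls among called named genes whose groups do not overlap, up to 5 called members of largest difference in each list with at least 3 called members, and all H1 genes. Untreated sh225 as a reference and the chromosome X stretch were added after seeing the data, as were IRF9, IRF7, ISG15, UBE2L6, PGR, CD14, SC5D, HINFP, H4C3, H2BC12, H3C4, H2BC11, H2BC26 and the genes named in that stretch. The deviations of same-numbered WT and K26 arrays correlated at r = 0.295 over 1 pairing of 2 numbers, which does not pair the samples. Results not described at length were those of 6 HMG protein genes (1 higher, 2 lower), 8 histone variants (2 higher, 1 lower), 27 keratin and junction genes (3 higher, 4 lower), 11 S100 genes (1 higher, 3 lower), 17 NF-kappaB targets (2 higher, 2 lower), 7 metallothionein genes (2 higher, 1 lower), 18 AKR1C and NRF2 targets (2 higher, 3 lower), 22 motile cilia genes (2 lower), 9 germline genes (1 lower), and 3 basal, 3 fibroblast, 3 leukocyte and 3 endothelial markers (0, 1 lower, 1 higher and 0).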

Additional observations from a re-analysis of the deposited data

How the results depend on the processing

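The count of calls was lower with any 1 of the 4 arrays left out, a fit that leaves its group with 1 array. Leaving out each array in turn gave 999 to 1520 calls, 359 to 671 higher and 640 to 849 lower. A threshold of 0.5 on the log2 difference left 1416. Calls of at least 2-fold numbered 42 with no background correction, 61 with an offset of 50 and 21 with the series matrix; the cause was not tested. The fall of H1-4 passed the test with an offset of 50 (-0.29) and with the series matrix (-0.21). Fanconi genes called lower numbered 10 to 11 and sterol genes 11 to 13 in the leave-one-out fits. With the series matrix, PSMB9 turned to 0.057 and CTNNB1 to -0.016, both of them genes whose probe identifiers the tables interchange. With the replicate number as a block 2179 items were called, against 2208, and no gene named in the report lost its call. Of 138 genes covered by the naming rule, 82 had the same outcome in every alternative run. H1-10 is among these 82 and was not called in any of the runs. Of 350 other list counts, 287 stayed within 1.5 times and 63 did not. With 2 arrays a group, small differences were beyond the precision of these arrays, and levels near the background are bounds.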
